A study of Mus musculus with 13 samples.

Results

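Adgrf5 (ENSMUSG00000056492), also called Gpr116, is a mouse gene for an adhesion G protein-coupled receptor, and it is 1 of 23211 genes in the count matrix. Its row was found by Ensembl ID and read over all 13 libraries. The fibrous libraries (n = 7) were made from fibrous tissue around tibial implants that the labels call PMMA. The bone libraries (n = 6) were made from bone around implants called Pressfit. Every fibrous library is labelled PMMA and every bone library Pressfit, so tissue and implant type cannot be told apart. A difference between tissues below is thus also one between implant types. All 13 were polyA RNA libraries of cells that were sorted by flow cytometry as Lin- and LEPR+, and the labels name no unsorted or LEPR- library. The labels used here give no strain, age, genotype or time after implantation, nor do they say whether libraries came from separate animals. The p-values below therefore measure the spread between libraries, which may be technical. Because each library is bulk RNA, fewer cells that carry a transcript and less transcript per cell cannot be told apart. The gene was picked with knowledge of the study that produced these libraries, so its contrast is not independent evidence.

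Adhesion G protein-coupled receptors have a long extracellular region that is cut within its GAIN domain. The cut leaves a short tethered agonist at the new end of the membrane-spanning part, and ADGRF5 is known to couple to Gq/11. The receptor is best known in the lung, where it restrains the surfactant pool of alveolar type II cells, and it is also expressed in endothelium of many tissues. The surfactant protein SP-D and the secreted protein FNDC4 have been proposed as ligands, and furin cuts the rat receptor. LEPR+ stromal cells of the marrow line its sinusoids, supply CXCL12 and stem cell factor to blood-forming cells, and include precursors of bone and fat cells.

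In the GENCODE M21 annotation of mm10, Adgrf5 lies on the plus strand of chr17:43360451-43459557 and spans 99107 bases, of which 9010 are exonic. The annotation gives 6 transcripts. A single one begins at the upstream start, and 3 begin at or just after a second start 29015 bases further along. The deposited counts are per gene and do not separate these starts. The 250 bases before each RefSeq start are shown because both could feed the same counts; capitals mark each CAGGAA, or TTCCTG where the match is on the other strand, the core letters bound by many ETS factors. The sequences are RefSeq's, in build GRCm38.p6, at chr17:43360181-43360430 (upstream) and chr17:43389216-43389465 (downstream), both on the plus strand.
Adgrf5 upstream start: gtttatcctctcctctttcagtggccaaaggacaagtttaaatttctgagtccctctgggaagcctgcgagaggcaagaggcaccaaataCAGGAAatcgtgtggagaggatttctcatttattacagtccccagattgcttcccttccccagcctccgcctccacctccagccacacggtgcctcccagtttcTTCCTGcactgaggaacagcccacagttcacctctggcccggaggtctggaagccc
Adgrf5 downstream start: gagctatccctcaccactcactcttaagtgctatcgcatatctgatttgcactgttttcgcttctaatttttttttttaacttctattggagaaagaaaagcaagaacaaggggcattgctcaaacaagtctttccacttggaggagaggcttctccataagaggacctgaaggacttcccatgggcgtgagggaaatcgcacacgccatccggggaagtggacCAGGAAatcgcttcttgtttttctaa
The upstream window held matches at -160 on the plus strand and -56 on the minus strand, counted from the start, and the downstream window held a match at -26 on the plus strand. The plus-strand matches of both windows sit in the same 10 letters, CAGGAAATCG. That run was picked as the longest that both windows share, so no rarity is read from its count. It was found on either strand in 11 of 32851 RefSeq promoter windows of this length (0.0335%), which include both Adgrf5 windows. CAGGAA alone was found in 25.7% of all windows, but a longer run is rarer for its length alone. Searches of both strands for TGTGGT (RUNX factors), GGAATG (TEAD), TATAAA (the TATA box) and GGGCGG (the GC box) found no match in either Adgrf5 window. In all windows these were found in 14.0%, 12.6%, 12.4% and 32.7%. The upstream and downstream windows held 5 and 7 CpG dinucleotides, against a median of 6, and had 54.4% and 44.8% G or C. A match in letters is a description of the sequence and no evidence of binding.

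Total counts ran from 18056208 to 44302166 in fibrous libraries and from 16162321 to 43217004 in bone libraries. Library names fell into the L002 series (5 fibrous, 4 bone) and the XY9274 series (2 fibrous, 2 bone). Fibrous 6, fibrous 7, bone 5 and bone 6 belong to XY9274. The names of fibrous 5, bone 3 and bone 4 hold the token Lin. Transcripts of the sort marker Lepr were under 5 CPM (counts scaled to the library size) in 5 of 13 libraries, namely fibrous 1, fibrous 5, bone 3, bone 4 and bone 5, so the RNA of these libraries went against the LEPR+ label. CPM here and below are normalised by TMM (trimmed mean of M values). The Adgrf5 contrast, the fold changes of the other genes described and the rho of the 15 co-varying genes are also given without these libraries, whereas the marker sums, list medians and neighbours are given over all 13.

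Adgrf5 was readily detected in 6 of 7 fibrous libraries and close to 0 in 5 of 6 bone libraries. Fibrous 1 to 7 held 2, 741, 312, 360, 60, 425 and 566 counts, which are 0.0781, 22.96, 11.5, 14.6, 3.69, 8.07 and 10.6 CPM. Bone 1 to 6 held 1, 2, 1, 1, 0 and 72 counts, which are 0.0394, 0.0829, 0.0644, 0.1003, 0 and 2.20 CPM. The groups overlapped: 6 fibrous libraries lay above every bone library, but fibrous 1 lay below bone 2, bone 4 and bone 6. The exact Poisson 95% interval of fibrous 1 ran from 0.00946 to 0.282 CPM and covered the values of bone 1 to 4, so they were not separable at this depth. For the 0 counts of bone 5 the limit used is the level of 3 counts, 0.0643 CPM, in place of an interval. At the fibrous median, bone 1 to 6 would have held 270, 257, 165, 106, 496 and 348 counts, many more than bone 1 to 5 held. Intervals and limits cover counting error only.

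**Figure D1:**
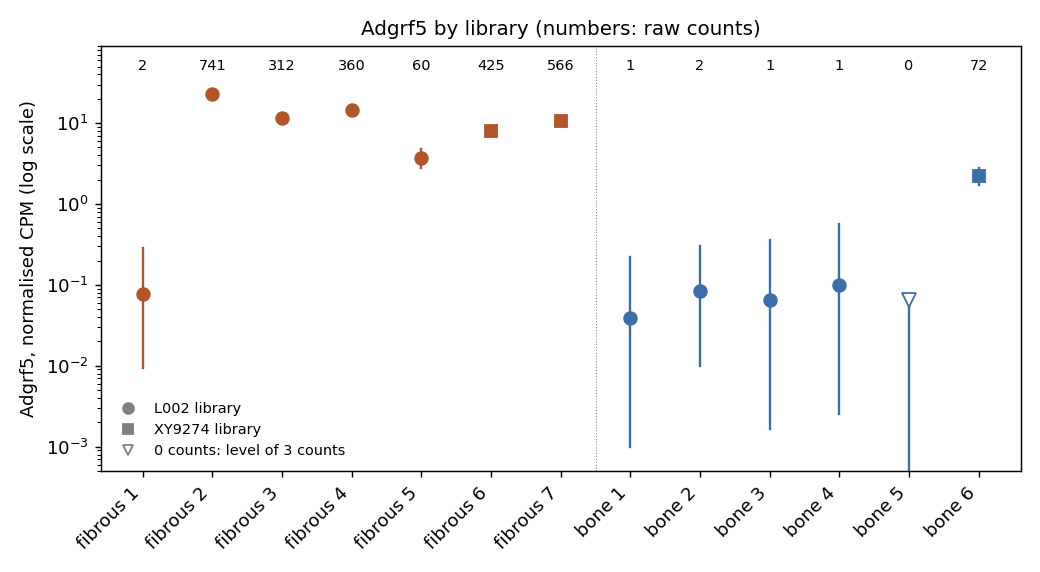
Adgrf5 in normalised CPM on a log axis, a point per library with its exact Poisson 95% interval, and raw counts along the top. Circles are L002 and squares XY9274 libraries, and the open triangle is the level of 3 counts in bone 5, which held 0. Fibrous 2 to 7 sit between 3.69 and 22.96 CPM, above bone 6 at 2.20 CPM, whereas fibrous 1 sits among bone 1 to 4.

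Compared with other genes of the same library, Adgrf5 was in the lower to middle range. Its CPM per kilobase of exon stood at percentiles 8.83, 40.2, 28.9, 35.0, 21.7, 19.7 and 23.4 of the 13294 tested genes' values in fibrous 1 to 7. In bone 1 to 6 its percentiles were 9.78, 8.59, 10.8, 11.4, 0 and 11.9, where values at 0 to 2 counts only reflect how many tested genes were at 0. Bone 6 alone held 93.5% of the Adgrf5 counts of all bone libraries.

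Adgrf5 averaged 10.2 ± 7.45 CPM in fibrous libraries (SD, n = 7) and 0.415 ± 0.877 CPM in bone libraries (n = 6). The fibrous median was 10.6 CPM and the bone median 0.0737 CPM. By edgeR's quasi-likelihood test with name series as a term, Adgrf5 had a fibrous over bone log2 fold change of 5.84 (SE 1.63), with an unadjusted p = 0.00352 and an adjusted p = 0.873 (Benjamini-Hochberg over 13294 genes). Adgrf5 thus did not pass the adjusted threshold of 0.05, and neither did any other gene: 0 of 13294 were called (0%), with 636 at an unadjusted p under 0.05. By unadjusted p, 374 genes were higher in fibrous libraries (2.81%) and 262 lower (1.97%), and Adgrf5 had the 27th smallest p of all. DESeq2 gave a log2 fold change of 5.92 with an adjusted p = 0.000318 and called 169 of 12993 genes (1.3%). Voom in limma gave 6.0 with an adjusted p = 0.570 and called 0 genes, with 1151 at an unadjusted p under 0.05. The call on Adgrf5 thus depends on the tool, while the direction was the same in all 3.

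For this single value, an exact two-sided permutation test of mean log2(CPM + 1) gave a difference of 2.69 between fibrous and bone libraries (p = 0.00408 over all 1716 splits, n = 7 and 6). With libraries exchanged only within their name series the exact permutation p was 0.00661 (756 splits). Leaving out each library in turn gave differences of 2.43 to 3.18, with exact permutation p from 0.00216 to 0.0114.

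The direction was the same in both name series, though the XY9274 series rests on 2 libraries a group. In L002, Adgrf5 averaged 10.6 ± 9.06 CPM in fibrous libraries (n = 5) and 0.0718 ± 0.0261 CPM in bone libraries (n = 4). The log2 fold change there was 7.09 (SE 1.55, edgeR adjusted p = 0.547), and 0 of 12761 genes were called (0%), with 648 at an unadjusted p under 0.05. In XY9274, fibrous 6 and 7 held 8.07 and 10.6 CPM, and bone 5 and 6 held 0 and 2.20 CPM. The fitted log2 fold change was 3.04 (SE 2.31, edgeR adjusted p = 1.0), with 0 of 15716 genes called (0%) and 562 at an unadjusted p under 0.05. The difference between the series' effects was -4.07 on the log2 scale (SE 2.58, edgeR interaction adjusted p = 1.0). It was 3.95 without bone 6, so its sign turns on that library. By edgeR 0 of 13294 genes passed this interaction (0%), with 292 at an unadjusted p under 0.05.

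In summed counts, the L002 fibrous libraries held 1475 and the L002 bone libraries 5, a ratio per total count of 197 (exact 95% interval 84.2 to 608). The XY9274 fibrous libraries held 991 and the XY9274 bone libraries 72, a ratio of 11.5 (9.05 to 14.8). Over all libraries but bone 6 the sums were 2466 in fibrous and 5 in bone. These intervals describe counting of the pooled reads and not the spread between libraries.

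Between the series themselves, tissue held fixed, the XY9274 over L002 log2 difference for Adgrf5 was 2.14 (SE 1.51, edgeR adjusted p = 0.422). It was -0.76 without bone 6. For comparison, 287 of 13294 genes (2.16%) passed that contrast by edgeR. The mean levels were 5.23 ± 4.96 CPM in XY9274 (n = 4) and 5.90 ± 8.46 CPM in L002 (n = 9).

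**Figure D2:**
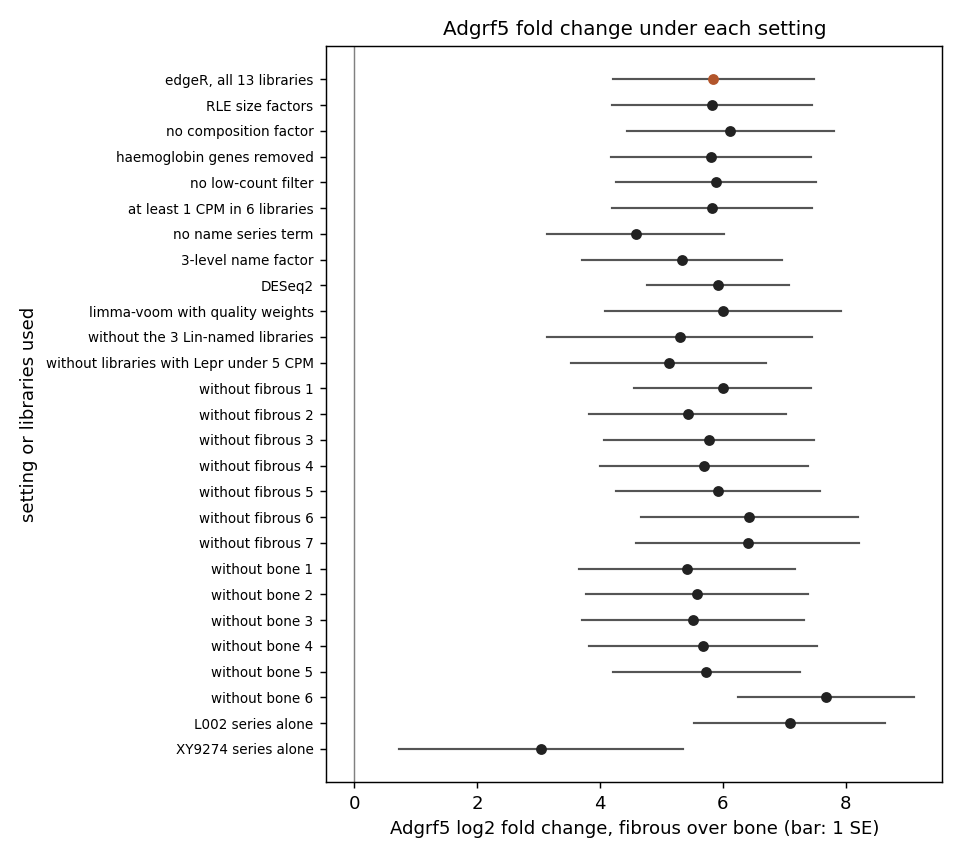
Log2 fold change of Adgrf5, fibrous over bone, with a bar of 1 SE, under each alternative setting, with each library left out, and within each name series; the fit over all 13 libraries is at the top. Every value lies above 0, from 3.04 in XY9274 alone to 7.69 without bone 6.

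Lepr, the sort marker and itself a gene of marrow stromal cells, varied widely within both groups. Lepr was at 0.469, 804, 407, 197, 0.739, 67.2 and 60.3 CPM in fibrous 1 to 7. In bone 1 to 6 it was at 46.7, 143, 0.644, 0.602, 2.42 and 102 CPM. Libraries of both groups were thus high and low, and Lepr did not pass the test (log2 fold change 1.88, SE 1.67, edgeR adjusted p = 0.891; 1.13 without the 5 libraries low in Lepr). Bone 1 and bone 2 held 1184 and 3446 Lepr counts beside 1 and 2 of Adgrf5, whereas fibrous 5 held 12 Lepr counts beside 60 of Adgrf5.

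Restricted to the libraries with at least 5 CPM of Lepr, Adgrf5 averaged 13.55 ± 5.756 CPM in fibrous (n = 5) and 0.775 ± 1.24 CPM in bone (n = 3), and the groups did not overlap. The difference in log2(CPM + 1) was 3.165 (exact permutation p = 0.0179, the smallest that 56 splits allow). By edgeR the log2 fold change was 5.12 (SE 1.58, adjusted p = 0.757). In those 5 fibrous libraries there were 28.6, 28.2, 74.3, 120 and 176 Adgrf5 counts per 1000 Lepr counts (fibrous 2, 3, 4, 6 and 7). In bone 1, 2 and 6 there were 0.845, 0.580 and 21.6. Spearman's rho of Adgrf5 with Lepr was 0.69 over 13 libraries, 0.93 over the 7 fibrous and 0.14 over the 6 bone libraries, where most Adgrf5 counts are 0 to 2.

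Whether libraries whose names share a token came from the same sort is not stated in the labels, and they were counted as separate libraries throughout. Fibrous 2 and fibrous 5 share a token, and fibrous 2 held 6.22 times the Adgrf5 CPM of fibrous 5 but 1088 times its Lepr CPM. Bone 2 and bone 4 share another, and Adgrf5 was at 2 counts and 1 count there while Lepr differed 237-fold. Without the 3 libraries named Lin, which leaves a single library of each such pair, the Adgrf5 difference in log2(CPM + 1) was 2.71 (exact permutation p = 0.0333).

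**Figure D3:**
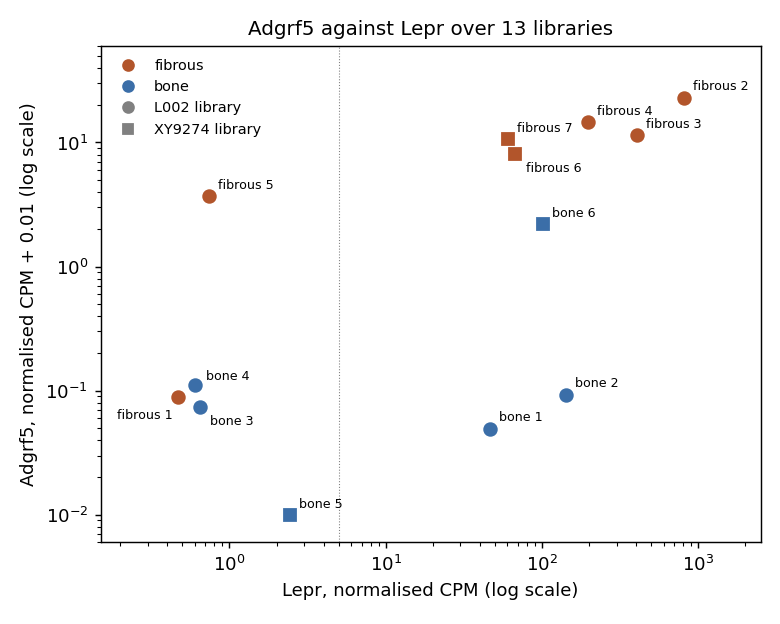
Adgrf5 (with 0.01 CPM added) against Lepr, both in normalised CPM on log axes, a point per library; the dotted line marks 5 CPM of Lepr. Right of the line the 5 fibrous libraries lie at 8.07 CPM of Adgrf5 or more, and the 3 bone libraries at 2.20 CPM or less.

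Other genes of the receptor's own subfamily were close to 0 in most libraries. Of the 5 AdgrF genes, Adgrf2 and Adgrf4 are not in the matrix. Adgrf1, the neighbouring gene, was at 0 in all fibrous libraries and at 0.0829 and 0.08575 CPM in bone 2 and bone 5. Adgrf3 was detected in 3 fibrous and 2 bone libraries, at most at 1.17 CPM in fibrous 1. Of 25 other adhesion receptors, 23 are in the matrix and 12 were tested: 7 log2 fold changes were above 0 and 5 below, with a median of 0.13, against 0.026 over all tested genes (51.9% above 0). None of the 12 passed by edgeR, and DESeq2 called 2, against 1.3% of all genes.

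Those 2 were Adgra2 and Adgrg2, which also had an unadjusted edgeR p under 0.05. Of the tested receptors 1 more, Adgrl4, was under that level in the other direction (log2 fold change -5.81, edgeR adjusted p = 0.873). Adgrl4 is described below with the endothelial markers. Adgra2, a co-receptor for WNT7 signals in brain endothelium, was at 1.72, 7.56, 4.30, 1.99, 0, 2.18 and 1.99 CPM in fibrous 1 to 7. In bone 1 to 6 it was at 0 in 4 libraries, 0.129 CPM in bone 5 and 1.13 CPM in bone 6. Its log2 fold change was 6.15 (SE 1.99, edgeR adjusted p = 0.873), and 4.69 without the libraries low in Lepr. Adgrg2, best known from the efferent ducts of the testis, averaged 3.36 ± 3.06 CPM in the fibrous group and 0.0965 ± 0.206 CPM in the bone group (log2 fold change 5.95, SE 1.76, edgeR adjusted p = 0.873). Without the libraries low in Lepr, Adgrg2 had a log2 fold change of 9.615. Adgrg2 was at 0 in bone 1, 2 and 6, the bone libraries left there, so the size of that value depends on the fit's prior count.

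Per kilobase of exon, which allows genes to be compared, Adgrf5 averaged 1.13 CPM in the fibrous group and 0.0461 CPM in the bone group. It ranked 6th of the 26 adhesion receptors in fibrous libraries, while the bone mean rests on bone 6. Adgrg1 ranked 1st in both groups, at 27.2 CPM per kilobase in fibrous and 21.5 in bone libraries.

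Genes for proposed ligands and for proteases of the receptor were measured next. Of 6 such genes, 5 are in the matrix and were tested, with 4 log2 fold changes above 0 and 1 below (median 0.66); none passed by edgeR or DESeq2. Fndc4 was at 3.905, 26.3, 8.89, 8.24, 5.97, 5.145 and 5.188 CPM in fibrous 1 to 7. It was at 11.2, 3.65, 5.41, 0.201, 0.322 and 0.887 CPM in bone 1 to 6. The groups overlapped (log2 fold change 1.65, SE 0.83, edgeR adjusted p = 0.873; 1.47 without the libraries low in Lepr), and rho with Adgrf5 was 0.47 over 13 libraries. Sftpd, the gene of SP-D, is not in the matrix. Pcsk5, a furin-like protease gene, averaged 28.56 ± 26.65 CPM in the fibrous group and 6.36 ± 9.50 CPM in the bone group (log2 fold change 2.38, SE 1.11, edgeR adjusted p = 0.873; 1.96 without the libraries low in Lepr). Furin itself averaged 37.0 ± 19.7 CPM in the fibrous group and 27.3 ± 19.4 CPM in the bone group.

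Because Adgrf5 is expressed in endothelium, markers of endothelial cells were summed in each library, leaving Adgrf5 out. Of 22 markers, 20 are in the matrix. Their summed level ran from 58.6 to 134 CPM in fibrous libraries (median 98.7) and from 51.0 to 151 CPM in bone libraries (median 81.3). Spearman's rho between the sum and Adgrf5 was 0.19 over 13 libraries and 0 over the 7 fibrous. Plvap, Eng, Vwf and Egfl7 made up 38.5% to 99.1% of the sum.

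Single endothelial markers differed in how they ran beside Adgrf5. Eng and Ramp2, which other cell types also express, and Plvap had rho of 0.681, 0.586 and 0.429 with Adgrf5 over 13 libraries. In fibrous 2, which had the highest Adgrf5, they were at 48.8, 7.47 and 14.75 CPM. For Vwf, Egfl7, Erg and Pecam1, rho over 13 libraries was 0.198, 0.022, -0.246 and -0.346. Cdh5, the cadherin of endothelial junctions, was at 0 in 6 of 7 fibrous libraries, with 0.551 CPM in fibrous 6, and at 0 in 4 of 6 bone libraries, with 0.602 and 0.08575 CPM in bone 4 and bone 5. Between 3 (fibrous 6) and 12 (fibrous 2) of the 20 markers were at 0 in fibrous libraries, and between 1 (bone 5, among the deepest) and 12 (bone 2) in bone libraries. Pecam1, an adhesion protein of endothelium, platelets and leukocytes, was at 0.351, 0.341, 0.478, 0.2435, 0.1231, 34.1 and 12.03 CPM in fibrous 1 to 7. Bone 1 to 6 had Pecam1 at 0.434, 7.335, 9.28, 0.602, 43.1 and 0.0918 CPM.

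Adgrl4, an adhesion receptor of endothelium, had lower values in most fibrous libraries. It was at 0 in 5 fibrous libraries, with 0.308 CPM in fibrous 5 and 3.63 CPM in fibrous 6. Bone 1 to 6 held 9.38, 5.47, 14.6, 0, 28.7 and 1.805 CPM of Adgrl4. The log2 fold change was -5.81 (SE 1.97, edgeR adjusted p = 0.873; -8.25 without the libraries low in Lepr), and rho with Adgrf5 was -0.73. Of the 8 endothelial markers tested, 4 log2 fold changes were above 0 and 4 below (median -0.14). The part of endothelial cells in the Adgrf5 result was not tested.

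**Figure D4:**
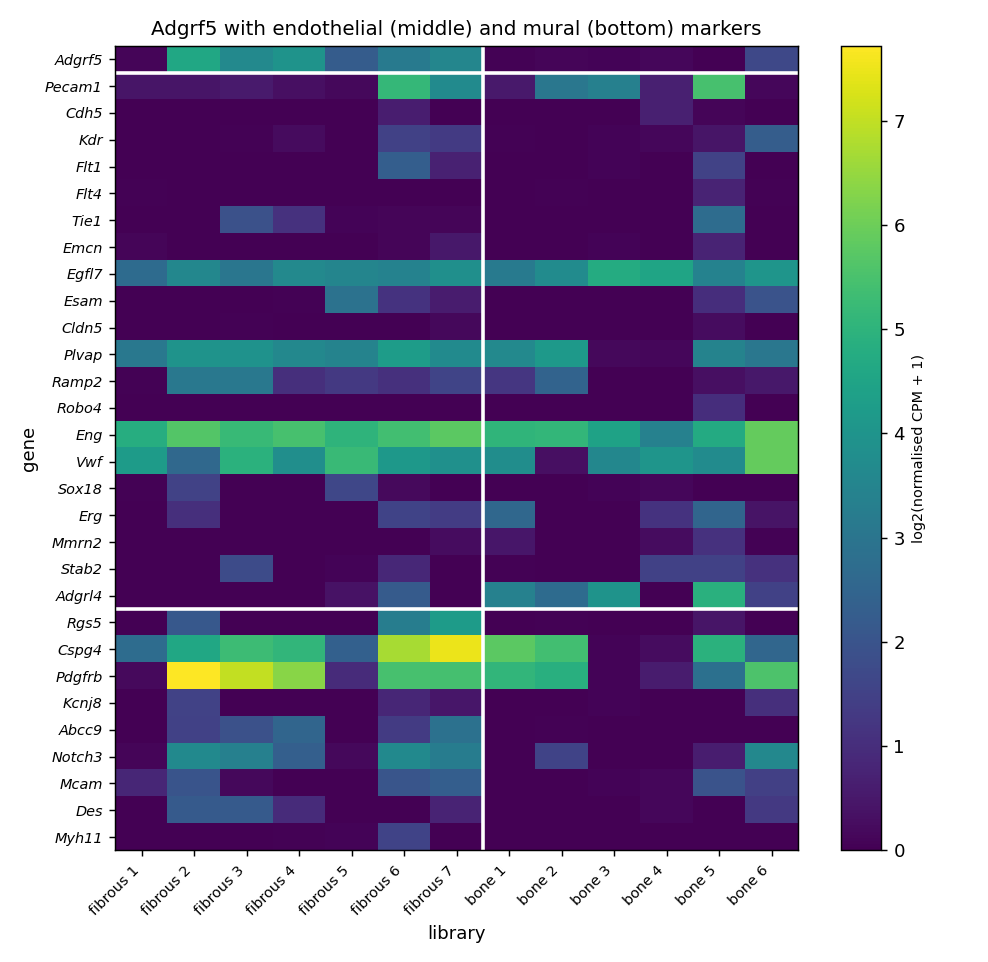
Heat map of log2(normalised CPM + 1) with libraries across (fibrous left, bone right) and genes down: Adgrf5 at the top, endothelial markers in the middle and mural markers at the bottom. Cdh5 is at 0 in 6 fibrous libraries, whereas Pdgfrb in the mural block is brightest in fibrous 2, 3 and 4, where Adgrf5 is also highest.

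Markers of mural cells, the pericytes and smooth muscle cells of vessels, had higher sums in most libraries with high Adgrf5. Of 10 markers 9 are in the matrix. Their sum ran from 5.23 to 258 CPM in fibrous libraries (median 173) and from 0.258 to 86.3 CPM in bone libraries (median 53.3), with rho 0.665 to Adgrf5 over 13 libraries and 0.61 over the fibrous. Pdgfrb, a growth factor receptor of pericytes that marrow stromal cells also carry, was at 0.156, 209, 128, 80.0, 0.923, 43.0 and 42.1 CPM in fibrous 1 to 7. In bone 1 to 6 it was at 32.6, 28.4, 0.0644, 0.502, 6.15 and 46.5 CPM. The groups overlapped (log2 fold change 1.90, SE 1.45, edgeR adjusted p = 0.873; 1.285 without the libraries low in Lepr). Rgs5, a pericyte marker, was at 0, 3.38, 0, 0, 0, 8.64 and 17.65 CPM in fibrous 1 to 7. In bone 1 to 6 it was at 0, 0.0414, 0, 0, 0.343 and 0 CPM. Rgs5 was thus at 0 in fibrous 3 and fibrous 4, where Adgrf5 was at 11.5 and 14.6 CPM. Notch3, another mural marker, was at 9.335 and 4.06 CPM there, and at 11.26 CPM in bone 6. Over 13 libraries, rho with Adgrf5 was 0.753 for Pdgfrb, 0.707 for Notch3, 0.248 for Mcam and 0.22 for Cspg4. Abcc9, also on the mural list, was at 0, 1.83, 2.76, 4.75, 0, 1.54 and 6.32 CPM in fibrous 1 to 7. In bone libraries Abcc9 was detected only in bone 2, at 0.0414 CPM. All 4 mural markers tested had log2 fold changes above 0 (median 2.24), and none had an unadjusted edgeR p under 0.05. The part of mural cells in the Adgrf5 result was not tested.

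Markers of marrow stromal cells had higher values in fibrous libraries without passing the edgeR test. All 16 tested had log2 fold changes above 0 (median 1.99), with 0 called by edgeR, 3 at an unadjusted p under 0.05 and 2 called by DESeq2, against 2.81% higher by unadjusted p and 1.3% called by DESeq2 over all genes, of which 51.9% had log2 fold changes above 0. Their sum ran from 101 to 14770 CPM in fibrous libraries (median 1005) and from 51.3 to 1907 CPM in bone libraries (median 735.5), with rho 0.555 to Adgrf5 over 13 libraries and 0.93 over the fibrous. Ebf3, a transcription factor of these cells, averaged 2.69 ± 4.21 CPM in the fibrous group and 0.222 ± 0.493 CPM in the bone group (log2 fold change 6.11, SE 2.59, edgeR adjusted p = 0.873; 4.34 without the libraries low in Lepr). Cxcl12 was at 32.7, 7965, 3292, 1431, 16.4, 376 and 470 CPM in fibrous 1 to 7. In bone 1 to 6 it was at 627, 1009, 5.48, 8.63, 15.8 and 652 CPM. The Adgrf5 counts of bone 1 to 6 were 1, 2, 1, 1, 0 and 72. Spearman's rho of Cxcl12 with Adgrf5 was 0.654 over 13 libraries and 0.929 over the fibrous. The part of stromal content in the Adgrf5 result was not tested. Choosing libraries with at least 5 CPM of Lepr does not test it, since their Lepr levels still differed. In those libraries Lepr ran from 60.3 to 804 CPM in fibrous and from 46.7 to 143 CPM in bone.

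Lists for other cell types of the tissue were described in the same way. Above 0 were 11 of 11 osteoblast markers tested (median 1.07), 8 of 8 chondrocyte (0.43), 8 of 10 fibroblast (0.97) and 5 of 5 adipocyte markers (2.27). Above 0 were 1 of 9 macrophage and monocyte markers tested (median -1.04), 0 of 11 neutrophil (-1.78), 1 of 10 erythroid (-0.81) and 2 of 10 B and plasma cell markers (-1.01). None of these markers passed by edgeR; at an unadjusted p under 0.05 were 1 osteoblast, 1 fibroblast, 1 adipocyte and 1 macrophage marker with higher values and 1 macrophage, 6 neutrophil and 2 B or plasma cell markers with lower values. DESeq2 called 1 osteoblast, 2 fibroblast and 1 macrophage marker higher and 1 B or plasma cell marker lower. Over all genes the shares were 2.81% higher and 1.97% lower by unadjusted p, and 1.3% called by DESeq2. Their sums had rho with Adgrf5 between -0.40 (neutrophil) and 0.68 (adipocyte) over 13 libraries. Over the fibrous libraries rho was 0.857 for the osteoblast sum, 0.857 for fibroblast, 0.821 for adipocyte and 0.393 for chondrocyte markers. For the macrophage and monocyte, neutrophil, erythroid, and B and plasma cell sums it was -0.107, -0.0714, -0.393 and -0.321. Adipoq, which is also on the marrow stromal list, made up most of the adipocyte sum where that sum was highest. It held 1495 of 1580 CPM in fibrous 2 and 720 of 770 CPM in fibrous 3. Haemoglobin genes took 0.754% to 19.97% of counts in fibrous libraries and 0.128% to 35.3% in bone libraries, with the highest share of each group in fibrous 5 and bone 4. The part of blood cell RNA in the Adgrf5 result was not tested, and the log2 fold change was 5.81 with haemoglobin genes left out.

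The genes whose levels followed Adgrf5 most closely were sought among 11668 tested genes with a mean of at least 1 CPM. The median Spearman rho was 0.043, 32 genes (0.274%) had rho of 0.8 or more, and 3 had 0.9 or more. These 13 points share their libraries, depth and tissue groups, so rho also carries the difference between tissues and is given as a description. The 3 highest were Pdk4 (0.951), a kinase that shuts off pyruvate oxidation, Olfml2a (0.929), a secreted olfactomedin-domain protein, and Kazn (0.901), the junction and cytoskeleton protein kazrin. Next came Heph (0.887), a ferroxidase of iron export, Fhl2 (0.885), a LIM-domain cofactor, Pdgfc (0.879), a ligand of the PDGF alpha receptor, and Fblim1 (0.868), the filamin-binding protein migfilin. Naalad2 (0.858) is a membrane peptidase, Rac3 (0.855) a small GTPase, Crim1 (0.852) a membrane protein that binds BMPs, Lamb1 (0.852) a laminin chain and Mrc2 (0.852) an endocytic collagen receptor. Fah (0.852) ends tyrosine breakdown, Phldb2 (0.842) anchors microtubules at the cell cortex, and Zfp27 (0.839) is a zinc finger protein.

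All 15 had log2 fold changes above 0, from 1.59 to 6.46, each with an edgeR adjusted p = 0.873; 9 had an unadjusted p under 0.05 (2.81% of all tested genes were higher at that level) and 7 were called by DESeq2 (1.3% of all genes). Since the genes were chosen for following a gene with higher values in most fibrous libraries, nothing is read from these counts. Crim1 was the only one of the 15 on chromosome 17. As with Adgrf5, whose pattern chose them, bone 6 was the highest bone library for 11 of the 15. Fibrous 1 was the lowest fibrous library for 13, tied with fibrous 5 at 0 for Heph. Over all candidates, bone 6 was the highest bone library for 13.4% and fibrous 1 the lowest fibrous library for 23.0%. Over the 7 fibrous libraries alone rho ran from 0.64 to 0.96, and 223 candidates had 0.9 or more there. Without fibrous 2 and fibrous 4, the libraries farthest from the Adgrf5 median, rho stayed at 0.73 or more for all 15 (n = 11). Over the 8 libraries with at least 5 CPM of Lepr, rho ran from 0.76 (Mrc2) to 0.98 (Crim1 and Zfp27), and the log2 fold changes of the 15 from 1.47 (Pdgfc) to 5.97 (Crim1).

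Pdk4, the closest, was at 0.03905, 19.95, 28.6, 7.31, 5.29, 3.82 and 6.17 CPM in fibrous 1 to 7. In bone 1 to 6 it was at 0.0394, 0.0414, 0.0644, 0.803, 0 and 1.35 CPM. As with Adgrf5, fibrous 2 to 7 lay above every bone library and fibrous 1 lay among them (log2 fold change 4.86, SE 1.62, edgeR adjusted p = 0.873; 5.30 without the libraries low in Lepr). Rac3 was at 1.72, 7.81, 12.8, 5.24, 2.46, 1.86 and 2.44 CPM in fibrous 1 to 7. In bone libraries it was at 0 in 4, at 0.0394 CPM in bone 1 and at 0.857 CPM in bone 6. Its groups did not overlap (log2 fold change 6.42, SE 1.83, edgeR adjusted p = 0.873; 4.86 without the libraries low in Lepr). Mrc2 was at 5.78, 55.1, 44.9, 27.2, 7.02, 36.9 and 56.7 CPM in fibrous 1 to 7, and at 0.0394, 0.124, 0, 0.201, 5.49 and 11.2 CPM in bone 1 to 6.

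**Figure D5:**
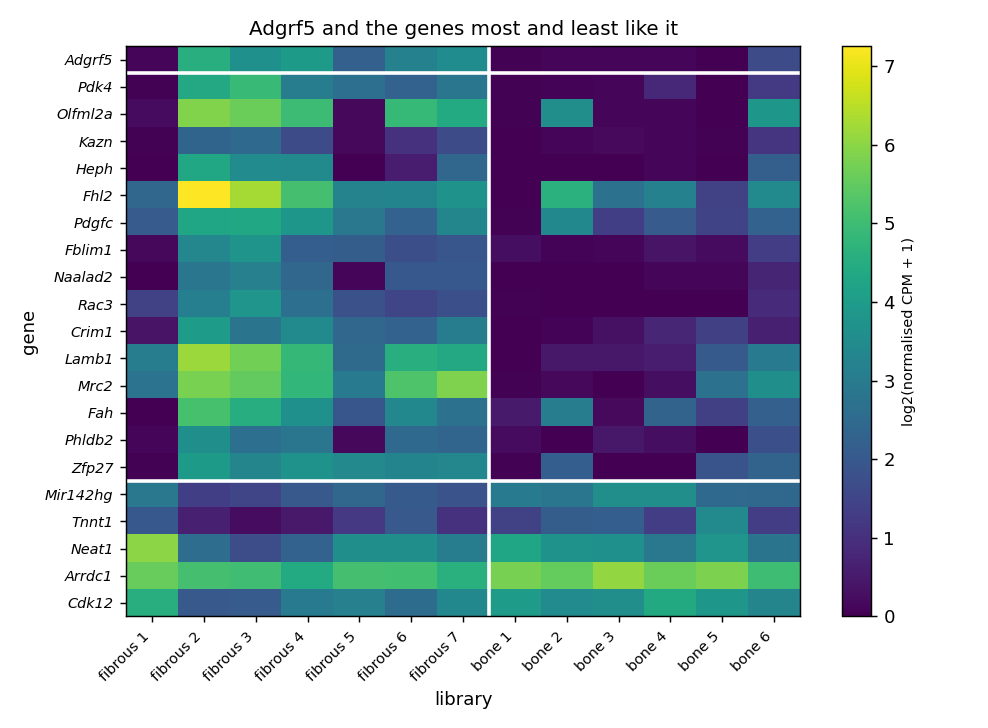
Heat map of log2(normalised CPM + 1) with libraries across (fibrous left, bone right) and genes down: Adgrf5 at the top, the 15 genes with the highest rho below it and the 5 with the lowest at the bottom. The 15 are dark in most bone libraries and, for 13 of them, lowest among fibrous libraries in fibrous 1 (tied with fibrous 5 for Heph).

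At the other end 10 candidates had rho of -0.8 or less. The lowest were Mir142hg (-0.841), the host transcript of a blood cell microRNA, Tnnt1 (-0.841), slow skeletal troponin T, Neat1 (-0.841), the RNA scaffold of paraspeckles, Arrdc1 (-0.835), an arrestin-domain protein of budding vesicles, and Cdk12 (-0.835), a kinase of RNA polymerase II. Arrdc1 averaged 31.6 ± 8.26 CPM in the fibrous group and 49.9 ± 11.6 CPM in the bone group (log2 fold change -0.67, SE 0.22, edgeR adjusted p = 0.873; -0.55 without the libraries low in Lepr).

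After the mean of each series and tissue was subtracted, the 10 genes with the highest Pearson r to Adgrf5 ran from 0.89 to 0.94. They were Ilvbl, Chst14, Arsk, Phldb2, Eri3, Cygb, Mrc2, Aco1, Pdk4 and Heph, of which 4 (Phldb2, Mrc2, Pdk4 and Heph) were among the 15 above. Cygb, the stromal globin cytoglobin, was at 0.03905, 17.1, 9.96, 7.35, 0.0616, 1.785 and 2.54 CPM in fibrous 1 to 7. In bone libraries it was at 0 in 3, with 0.0414, 0.193 and 1.84 CPM in bone 2, 5 and 6 (log2 fold change 6.43, SE 2.41, edgeR adjusted p = 0.873; 4.44 without the libraries low in Lepr). Ilvbl and Eri3 averaged 42.15 ± 15.15 and 80.2 ± 25.01 CPM in fibrous libraries, and 43.7 ± 10.1 and 71.8 ± 14.8 CPM in bone libraries. Since 5 of 6 bone libraries held 0 to 2 Adgrf5 counts, these r come mainly from the fibrous libraries. Without this subtraction, Spearman's rho with Adgrf5 over 13 libraries was 0.495 for Ilvbl and 0.434 for Eri3. When fibrous 2 and 4 were left out, that rho was 0.164 for Ilvbl and 0.0636 for Eri3 over 11 libraries. The r after subtraction was not computed without fibrous 2 and 4. Of the 15 genes above, 13 have RefSeq promoter windows, and 4 of their 18 windows hold CAGGAA (22.2%), against 25.7% of all windows.

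No tested neighbour of Adgrf5 on chromosome 17 had an unadjusted edgeR p under 0.05. Of the 5 nearest protein-coding genes of the matrix on each side, 7 were tested, with edgeR p from 0.411 to 0.971, and the rho of all 10 with Adgrf5 ran from -0.47 to 0.57. Tnfrsf21, 271 kb upstream, averaged 30.9 ± 20.7 CPM in the fibrous group and 46.4 ± 62.1 CPM in the bone group. Pla2g7, 109 kb downstream, averaged 4.37 ± 4.04 CPM in the fibrous group and 10.9 ± 19.4 CPM in the bone group. Rcan2, 342 kb downstream, averaged 5.85 ± 5.13 CPM in the fibrous group and 2.53 ± 3.52 CPM in the bone group. The single annotated gene that overlaps Adgrf5, a small nuclear RNA, is not in the matrix.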

How the data were processed

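RNA was sequenced from 13 libraries of sorted mouse cells (polyA RNA, TruSeq libraries and a NovaSeq sequencer, per the labels' protocols). The authors deposited raw counts per gene in a matrix of 23211 Ensembl IDs, all of which matched a GENCODE M21 gene. EdgeR, mm10 and hg38 are listed, without versions or roles, per the submitters' processing notes. The aligner, counter and strand setting were not given in the sources used here. Coordinates follow mm10, the mouse assembly of the pair. Adgrf5, its gene lists and the tests were chosen with earlier results of these data known.

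Computed here were TMM factors, normalised CPM and edgeR 4.0.16 quasi-likelihood tests (R 4.3.3; filterByExpr on the groups, robust dispersions, name series and tissue as terms, 13294 genes, Benjamini-Hochberg adjustment, threshold 0.05). Log2 fold changes are fibrous over bone. For genes near 0 counts they depend on the fit's prior count. An SE was derived as log2 fold change over the square root of F. DESeq2 1.42.0, voom with quality weights in limma 3.58.1, other normalisations, filters and terms, and fits without each library were alternatives. The tests were checked on simulated counts. The common biological coefficient of variation was 0.904. Exact permutation tests used log2(CPM + 1). Library precision is limited by depths of 16162321 to 44302166 counts. Libraries were counted as separate. No pair held identical values, which does not show that they came from separate animals or sorts.

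Replicate numbers follow accession order and pair nothing. Genes named are Adgrf5 and Lepr, the 15 highest and 5 lowest by Spearman rho (ties by Pearson r; Gm-number and Rik symbols left out), the 10 highest by Pearson r within series and tissue, the AdgrF genes, up to 4 genes per other list by smallest p, and the 5 nearest protein-coding genes on each side. The text describes a subset. The lists described are AdgrF, other adhesion receptors, ligands and proteases, and markers of 11 cell types; the signalling lists are not reported here. Cdh5, Ramp2, Rgs5, Abcc9, Cxcl12, Plvap, Vwf and Erg fall outside this rule and were chosen after their values were seen.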

Additional observations from a re-analysis of the deposited data

Results flagged for a closer look

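For 13 measures, the libraries of each tissue were searched for a single library set apart from the rest by a gap that is large against the group's range (Dixon's 95% limit). This held in 10 of 26 groups. Chance gives about 1 in 20 for normally distributed values, which these skewed CPM, many of them at 0, are not, and several measures were chosen for following Adgrf5 or after their values were seen, so no chance rate is read from this count.

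Bone 6 stood above the other bone libraries for Adgrf5 (2.20 CPM), for Rac3 (0.857 CPM) and for Cygb (1.84 CPM). In bone 5 Pecam1 was at 43.1 CPM, and in bone 4 Cdh5 was at 0.602 CPM. Fibrous 6 stood above the other fibrous libraries for Adgrl4 (3.63 CPM), Cdh5 (0.551 CPM) and Pecam1 (34.1 CPM). Fibrous 2, the library with the highest Adgrf5, stood above the others for Cxcl12 (7965 CPM) and for Fndc4 (26.3 CPM).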

How the results depend on the processing

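Adgrf5 was higher in fibrous libraries under each alternative run. By edgeR the log2 fold change was 4.58 without a name series term and 6.12 without a composition factor, and ran from 5.42 to 7.69 (without bone 6) when each library was left out (adjusted p 0.414 to 0.999). Only DESeq2 called it, over all libraries (5.92, adjusted p = 0.000318) and in L002 alone (7.215, adjusted p = 1.74e-05). DESeq2 called 169 genes (148 higher, 21 lower) against 0 by edgeR, 0 by voom and 0 under the other alternatives. The cause was not tested. Within L002, leaving out a library gave 6.88 to 7.47, with no value without fibrous 2, 3, 4 or 5, since Adgrf5 then failed the low-count filter. Within XY9274 it gave 2.10 (without bone 5) to 11.86 (without bone 6, against the 0 counts of bone 5 alone). A lone library is assumed there to vary like the other group. With each library left out, the interaction of series and tissue ran from -5.07 to 3.95, against -4.07, and XY9274 over L002 from -0.76 to 2.88, against 2.14; both changed sign only without bone 6. The permutation difference on the log2 scale was 4.60 with a pseudocount of 0.1 and 3.31 with 0.5 (exact permutation p = 0.00583 and 0.00466).

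Of the 15 co-varying genes, 9 were shared with the 15 highest by Pearson r, 8 with those found without fibrous 2 and 4, and 2 with those of the 7 fibrous libraries alone. For 31 single genes, 692 of 704 alternative values kept their direction and side of the threshold and 11 passed it, all by DESeq2. Pecam1 reversed with voom (2.64, against -2.78). No paired analysis was possible because replicate numbers were given in accession order. With 0 to 2 counts in 6 libraries, depth limits any order among them.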
